A study of Danio rerio with 9 samples.

Results

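The genes elavl3, elavl4, gap43, stmn2a, stmn2b, stmn4 and tubb5, which mark a neuron soon after its progenitor has divided for the last time, were followed through the heads of 2 dpf zebrafish. The 7 genes were taken by name and matched 8 of the 32520 rows of the deposited expression table. The names elavl3 (ENSDARG00000014420), elavl4 (ENSDARG00000045639), gap43 (ENSDARG00000099744) and tubb5 (ENSDARG00000037997) matched 1 row each. The name table gives STMN2, with no a or b, to 2 rows, so stmn2a and stmn2b cannot be told apart here. They are called the more abundant STMN2 copy (ENSDARG00000033234) and the less abundant STMN2 copy (ENSDARG00000070537). STMN4 is also the name of 2 rows, called the more abundant STMN4 copy (ENSDARG00000043932) and the less abundant STMN4 copy (ENSDARG00000030106). All 8 rows were above 1 FPKM in each of the 9 samples, and all were tested.

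When a neural progenitor leaves the cell cycle, its daughter switches on proteins that settle its identity and proteins that build its first axon. Elavl3 and Elavl4, also known as HuC and HuD, are RNA-binding proteins that attach to AU-rich stretches of messenger RNAs and regulate their stability, splicing and translation. Elavl3 is a standard marker of newborn neurons in zebrafish. Gap43 is a membrane-bound phosphoprotein of the growth cone, the motile tip of the axon. Stathmins bind tubulin dimers and promote the disassembly of microtubules, and the proteins of STMN2 (known as SCG10 in mammals) and STMN4 (known as RB3 in mammals) are anchored to membranes in growing neurites. Beta-tubulin, the product of tubb5, is 1 of the 2 subunits of the microtubule itself.

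The heads came from embryos of the Tubingen strain at the long-pec stage, with 3 samples in each of 3 groups and RNA from a pool of 5 heads in each sample. Conventionally raised (CV) embryos kept the microbes of their tank. Germ-free (GF) embryos were sterilized with gentamicin and hypochlorite during gastrulation. Metabolite-treated (ZM) embryos were sterilized in the same way and then received, once, a filter-sterilized extract of adult zebrafish guts in their medium. GF and ZM embryos therefore both carry the sterilizing treatment and CV embryos do not, so that absence of microbes and the treatment itself cannot be told apart in a comparison with CV. The gut extract can hold products of the fish as well as of its microbes. Each pool mixes neurons with every other cell of the head, and fewer neurons and less RNA per neuron cannot be told apart. Nothing in the labels says that the pools came from separate clutches, so the p-values measure only the spread between these samples.

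FPKM, the unit of every level below, counts fragments per length of transcript and per total of mapped fragments, so that levels can be compared between genes. The sum of FPKM over all genes ran from 587431 to 705494 per sample, and between 14872 and 16774 genes were above 1 FPKM. Markers of other head tissues differed between libraries. The 7 erythrocyte genes summed to 1577 FPKM in CV 3 and to between 3138 and 4139 FPKM in the other 8 samples. The 13 muscle genes, the most abundant marker list, summed to between 23367 FPKM in GF 1 and 41723 FPKM in GF 2.

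The 8 genes together reached 866.3, 528.5 and 988.2 FPKM in CV, 699.0, 592.4 and 509.7 FPKM in GF and 385.7, 387.6 and 659.3 FPKM in ZM (replicates 1, 2 and 3, here and below). The sums of the groups overlapped, and CV 2 lay below GF 1, GF 2 and ZM 3. In the whole set, tubb5 had the highest level in 8 of the 9 samples, and it supplied from 25.8% to 41.2% of the sum. The other 7 genes lay between 3.91 FPKM, for elavl4 in ZM 2, and 190.5 FPKM, for gap43 in CV 1.

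**Figure D1:**
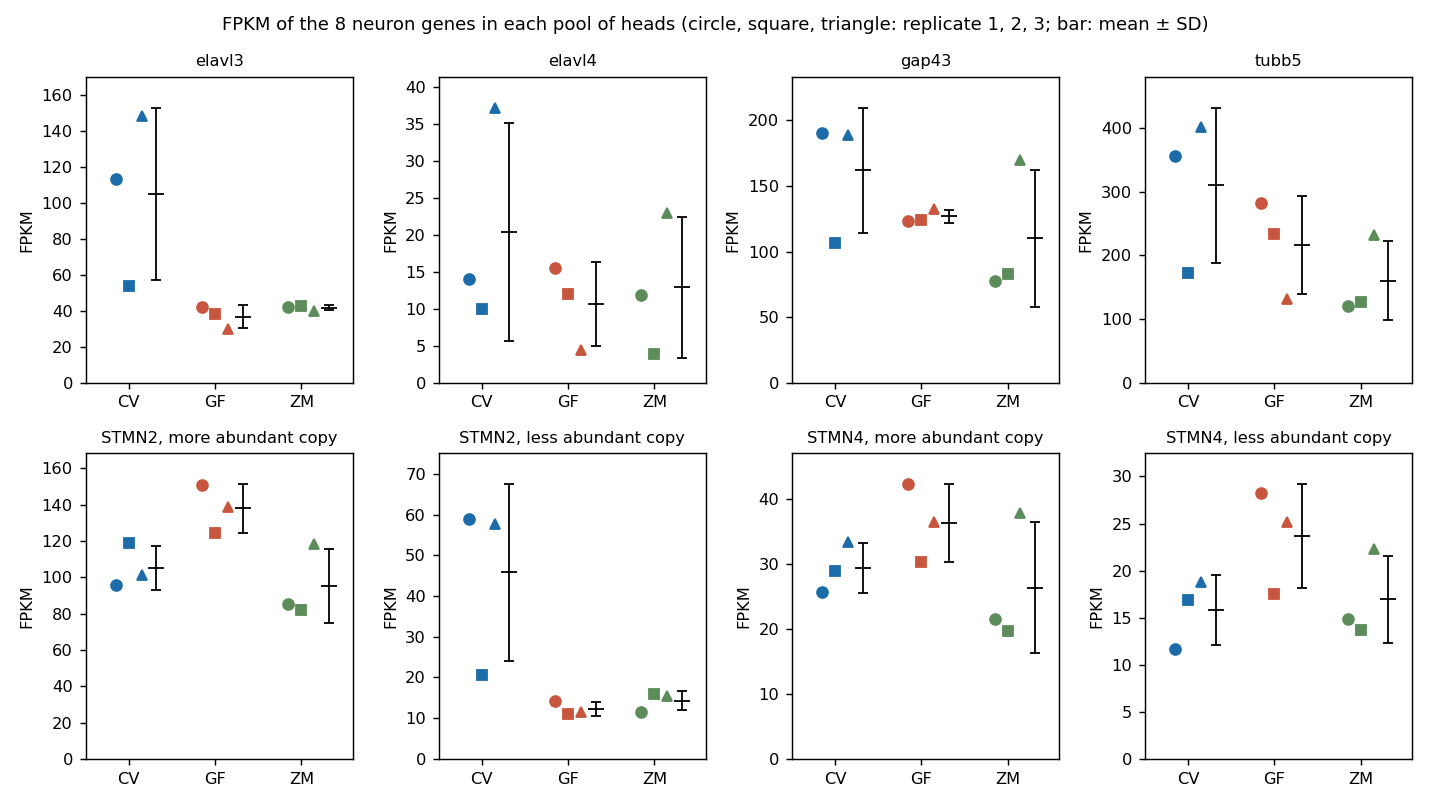
FPKM of the 8 genes in each of the 9 samples (points, 1 panel per gene, each with its own vertical axis from 0), with the group mean and SD over 3 samples (bar and whiskers). For elavl3 and the less abundant STMN2 copy the 3 CV points lie above all GF and ZM points, with CV 2 nearest to them, while for the more abundant STMN2 copy the 3 GF points, from 124.3 to 151.0 FPKM, are the highest of the 9.

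The first question was whether young-neuron transcripts differ between heads raised without and with microbes. The RNA-binding protein gene elavl3 had 113.2, 53.8 and 148.3 FPKM in CV and 41.9, 38.3 and 29.7 FPKM in GF. All 3 GF samples were below all 3 CV samples, and CV 2 was the CV sample nearest to them. Group means were 105.1 ± 47.8 FPKM in CV and 36.6 ± 6.30 FPKM in GF (SD, n = 3). The log2 fold change was -1.39 (SE 0.30, 95% interval -2.07 to -0.71), and limma gave an adjusted p = 0.0531, which misses the threshold of 0.05. Over the alternatives that keep every sample of both groups the adjusted p ran from 0.00476 to 0.146, and over those that leave out a sample from 0.000944 to 0.181. The value of 0.00476 came from a fit of only GF and CV, added after the data were seen. That fit pairs the samples by number, although CV was not taken as paired. The adjusted p was lowest without CV 2, where the log2 fold change was -1.81.

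Its relative elavl4 had a lower level than elavl3 in every sample. It had 14.0, 9.94 and 37.2 FPKM in CV and 15.5, 12.0 and 4.35 FPKM in GF, so that the groups overlapped. The difference of -0.82 on the log2 scale had a 95% interval from -2.23 to 0.60 (limma adjusted p = 0.493), and this interval holds both 0 and the value of elavl3. The ratio of elavl3 to elavl4 was 8.09, 5.41 and 3.98 in CV and 2.69, 3.20 and 6.82 in GF. These ratios overlapped (exact permutation test, two-sided p = 0.4, where 3 against 3 samples cannot go below 0.1).

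The growth-cone gene gap43 was among the most abundant of the set, with 190.5, 106.9 and 188.6 FPKM in CV and 123.5, 124.4 and 132.8 FPKM in GF. CV 2 was lower than every GF sample, and the groups overlapped. The log2 fold change was -0.30 with a 95% interval from -0.97 to 0.37 (limma adjusted p = 0.602).

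The stathmin genes differed in direction, and the clearest contrast was within STMN2. The less abundant copy had 58.9, 20.7 and 57.7 FPKM in CV and 14.3, 11.1 and 11.6 FPKM in GF. All GF samples were below all CV samples, and CV 2 was again the CV sample nearest to GF. Group means were 45.8 ± 21.7 FPKM in CV and 12.3 ± 1.71 FPKM in GF (SD, n = 3). Its log2 fold change, -1.68 (SE 0.34, 95% interval -2.44 to -0.92), was the lowest of the 8 genes, and its limma adjusted p was also 0.0531. Across the alternatives that keep every sample of both groups its adjusted p ran from 0.00253 to 0.146, and it was 0.000828 without CV 2, with a log2 fold change of -2.16. The value of 0.00253 came from the same fit of only GF and CV that pairs samples by number. Among all 15904 genes tested, 0.396% had a lower fold change than this copy and 1.47% a lower one than elavl3.

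The more abundant STMN2 copy had 95.5, 118.8 and 101.4 FPKM in CV and 151.0, 124.3 and 138.5 FPKM in GF. Here all GF samples were above all CV samples, with means of 137.9 ± 13.3 FPKM in GF and 105.2 ± 12.1 FPKM in CV (SD, n = 3). The log2 fold change was 0.39 (SE 0.16, 95% interval 0.03 to 0.75), with an unadjusted p of 0.0375 and an adjusted p = 0.189 from limma, which does not pass. CV 2, low for elavl3, gap43, tubb5 and the less abundant copy, was the highest CV sample for this copy.

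The more abundant STMN2 copy was therefore at 1.62, 5.74 and 1.76 times the level of the less abundant one in CV and 10.6, 11.2 and 12.0 times its level in GF. No GF ratio overlapped a CV ratio. The difference in log2 ratio was 2.15, with SDs of 1.02 in CV and 0.09 in GF, and the exact permutation p was 0.1, the smallest that 3 against 3 samples can give. The ratio was compared after the values of both copies were known. Whether reads were shared between the copies was not tested.

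**Figure D2:**
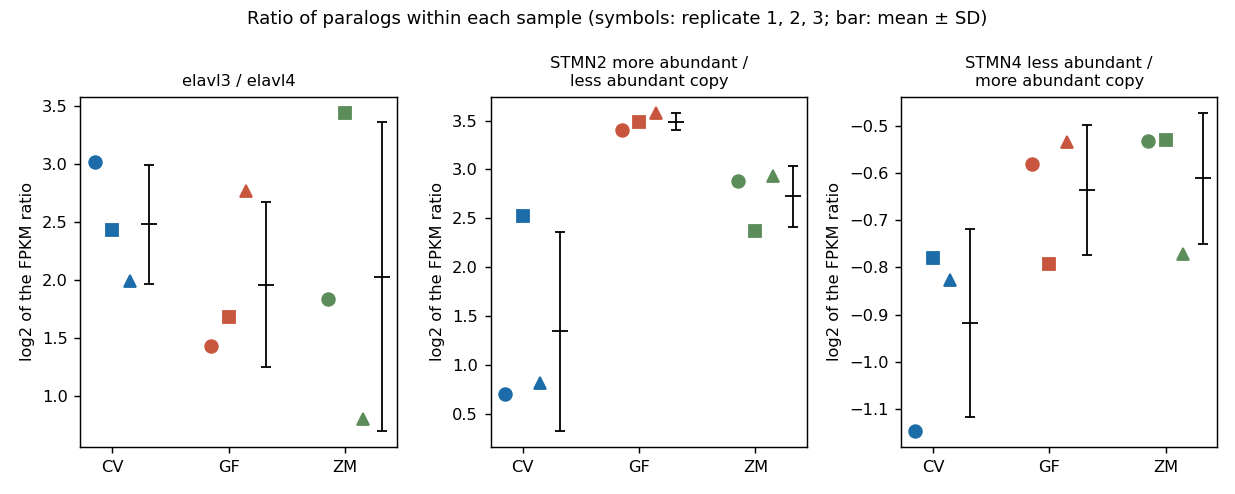
Log2 ratio of FPKM between gene pairs in each of the 9 samples (points, with the group mean as a bar) for elavl3 to elavl4, for the more to the less abundant STMN2 copy and for the less to the more abundant STMN4 copy. The STMN2 ratio has a mean of 1.34 in CV, 3.49 in GF and 2.73 in ZM on the log2 scale, with all GF samples above all others, while the elavl3 to elavl4 ratios overlap in all 3 groups.

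Both STMN4 copies had higher means in GF. The more abundant copy had 25.7, 29.0 and 33.4 FPKM in CV and 42.3, 30.4 and 36.4 FPKM in GF, which overlap. Its log2 fold change was 0.29 with a 95% interval from -0.23 to 0.81 (limma adjusted p = 0.504). The less abundant copy had 11.6, 16.9 and 18.8 FPKM in CV and 28.3, 17.5 and 25.2 FPKM in GF, where GF 2 fell among the CV values. Its log2 fold change was 0.55 (SE 0.24, unadjusted p = 0.0466, limma adjusted p = 0.212). The less abundant copy was at 0.452, 0.582 and 0.564 times the level of the more abundant one in CV, 0.668, 0.577 and 0.690 times in GF and 0.692, 0.693 and 0.586 times in ZM. The GF ratios overlapped those of CV (exact permutation p = 0.2), and the ZM ratios lay just above those of CV (exact permutation p = 0.1, the smallest possible).

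Beta-tubulin tubb5 had 356.8, 172.6 and 402.7 FPKM in CV and 282.2, 234.5 and 131.3 FPKM in GF. GF 1 and GF 2 were above CV 2, so the groups overlapped. The log2 fold change of -0.50 had a 95% interval from -1.35 to 0.35 (limma adjusted p = 0.483).

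Counted together, the mean was lower in GF for 5 of the 8 genes, against 48.1% of all genes. The adjusted threshold of 0.05 was met by 0 of the 8 in either direction, where limma called 0.00629% of all genes lower and 0% higher. Without adjustment, at a p under 0.05, 2 of 8 were lower (elavl3 and the less abundant STMN2 copy) against 18.0% of all genes, and 2 were higher (the more abundant STMN2 copy and the less abundant STMN4 copy) against 4.70% of all genes. Non-overlapping samples gave 2 lower, against 17.7% of all genes, and 1 higher, against 9.14%. Both lower counts are close to the background shares. The count of 2 higher genes depended on the processing. It was 0 with an equal FPKM sum per sample, with group-specific sample weights and without the eBayes trend, and it was 1 with no filter, in the blocked fit of only GF and CV and after quantile normalization, where 1862 of 15904 genes were higher at that level. It was also 0 without CV 1, GF 1 or GF 3, and 1 without CV 2, CV 3 or ZM 1. At an adjusted p under 0.1, a limit added with the results known, 2 were lower against 11.6% of all genes, and 0 were higher against 0.780%. Their median log2 fold change was -0.40, beside 0.02 for all genes. When FPKM was rescaled between samples in 3 other ways, the median of all genes moved between -0.09 and 0.12. Relative to that median elavl3 lay between -1.56 and -1.40, the less abundant STMN2 copy between -1.81 and -1.69, and the more abundant STMN2 copy between 0.20 and 0.38. All of these rescalings but quantile normalization use a single factor per sample, which shifts every gene by nearly the same amount. Subtracting the median takes that shift out again, so for them the narrow ranges are no test of stability.

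**Figure D3:**
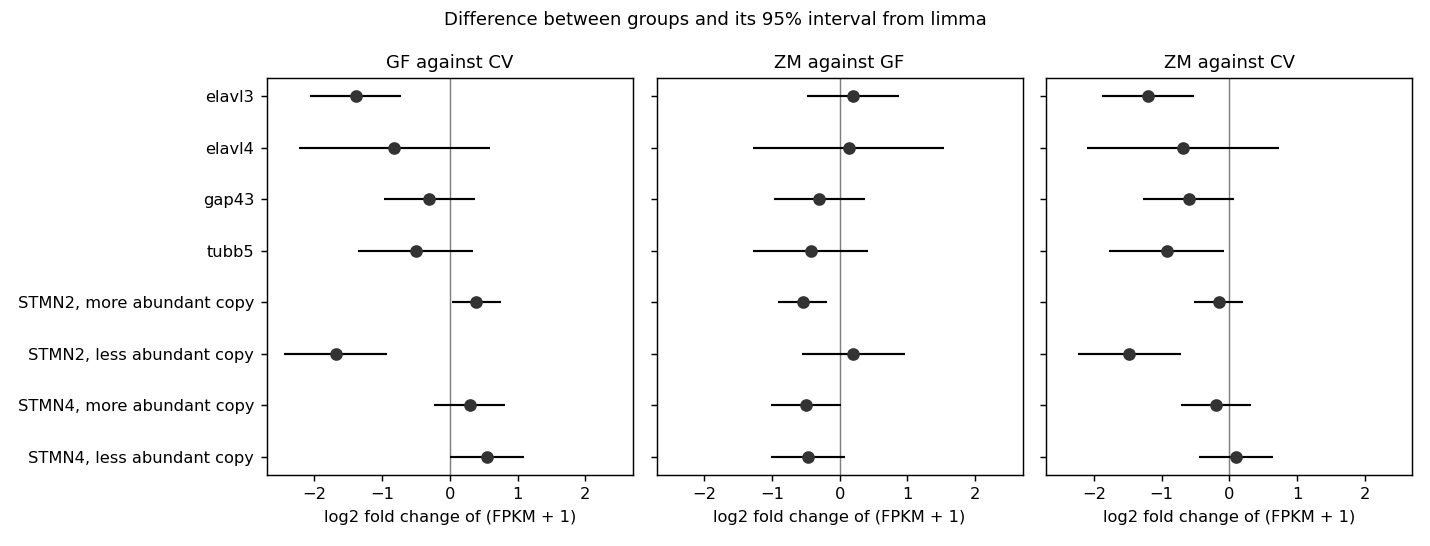
Log2 fold change of each of the 8 genes on the log2(FPKM + 1) scale in GF against CV, ZM against GF and ZM against CV (points, with 95% intervals from limma, 3 samples per group). In GF against CV the genes run from -1.68 for the less abundant STMN2 copy to 0.55 for the less abundant STMN4 copy, and in ZM against GF the interval of 1 gene, the more abundant STMN2 copy, lies wholly below 0.

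The second question was whether gut metabolites given to germ-free embryos change these levels. ZM and CV were each compared with the same GF samples, so the 2 sets of differences share them. In ZM the values of elavl3 were 42.3, 42.5 and 40.0 FPKM. They overlapped those of GF, with a log2 fold change of 0.19 and a 95% interval from -0.48 to 0.87 (limma adjusted p = 0.971). Each ZM sample was above the GF sample of the same number, by 0.01, 0.15 and 0.42 on the log2 scale, in 3 of 3 pairs. In the less abundant STMN2 copy the 3 ZM samples had 11.6, 15.9 and 15.5 FPKM, also overlapping GF. That difference was 0.20 on the log2 scale, with a 95% interval from -0.56 to 0.96 (limma adjusted p = 0.972). Against the GF sample of the same number, the ZM samples of this copy differed by -0.28, 0.48 and 0.40.

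The more abundant STMN2 copy had 85.0, 82.0 and 118.5 FPKM in ZM. All 3 were below the 3 GF samples, and each ZM sample was below the GF sample of the same number, by 0.82, 0.59 and 0.22 on the log2 scale. The log2 fold change was -0.55 (SE 0.16, 95% interval -0.91 to -0.18), with an unadjusted p of 0.00716 and an adjusted p = 0.848 from limma, which does not pass the threshold of 0.1. The ratio of the more to the less abundant copy was 7.35, 5.16 and 7.63 in ZM, below the GF ratios in all 3 samples. The log2 ratio differed by -0.76 from GF, with an exact permutation p of 0.1, the smallest possible for these samples. With samples paired by replicate number the paired exact p was 0.25, again the smallest possible.

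Both STMN4 copies also had lower means in ZM than in GF. The less abundant copy had 14.9, 13.6 and 22.2 FPKM in ZM, lower than the same-numbered GF sample in 3 of 3 pairs, with a log2 fold change of -0.46 (95% interval -1.01 to 0.08, limma adjusted p = 0.859). The more abundant copy had 21.5, 19.7 and 38.0 FPKM, and its ZM 3 value lay within the range of GF. Its log2 fold change was -0.49 (95% interval -1.02 to 0.03, limma adjusted p = 0.848). This copy was lower than in the same-numbered GF sample in 2 of 3 pairs and higher in 1.

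For gap43, tubb5 and elavl4, ZM 3 stood above the other ZM samples. The values of gap43 were 77.4, 82.8 and 170.1 FPKM, those of tubb5 were 121.1, 127.1 and 232.0 FPKM, and those of elavl4 were 11.9, 3.91 and 22.9 FPKM. In replicates 1 and 2 all 3 genes were lower in ZM than in the GF sample of the same number, and in replicate 3 all 3 were higher. The group differences were -0.30 for gap43 (95% interval -0.97 to 0.37), -0.42 for tubb5 (-1.27 to 0.42) and 0.13 for elavl4 (-1.28 to 1.54), with limma adjusted p-values of 0.920, 0.903 and 0.998. Leaving out ZM 1, ZM 2 or ZM 3, or a GF sample, moved the elavl4 difference between -0.40 and 0.74.

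In ZM 5 of the 8 genes had a lower mean than in GF, against 49.2% of all genes. The adjusted threshold of 0.1 was met by 0 of the 8, where limma called 0% of all genes lower and 0.00629% higher. With an unadjusted p under 0.05, 1 was lower against 3.16% of all genes, and 0 were higher against 2.55%. With the replicate number as a block, which pairs CV as well as GF and ZM by number, 2 of 8 were lower at that level, against 580 of 15904 genes. The added gene was the more abundant STMN4 copy (unadjusted p = 0.0336, adjusted p = 0.707). A blocked fit of only the GF and ZM samples was added after the data were seen. There 3 of 8 were lower at that level, against 1176 of 15904 genes. They were both STMN4 copies and the more abundant STMN2 copy, with adjusted p-values from 0.213 to 0.272. Without ZM 3, 4 of 8 were lower at an unadjusted p under 0.05, where the whole table held 1071 lower genes. Without GF 2, 3 of 8 were lower, where the whole table held 553. In the reported fit it held 502. For 1 of 8 genes all ZM samples were below all GF samples, against 6.17% of all genes, and for 0 of 8 they were all above, against 10.4%. Over the 8 genes the median difference was -0.36 on the log2 scale, beside 0.00 for all genes.

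Proliferation, lens and erythrocyte genes had sums that did not overlap between GF and ZM, although 0 genes of these lists passed the adjusted threshold of 0.1. All 19 proliferation genes tested had higher means in ZM than in GF, and 13 were higher at an unadjusted p under 0.05, against 2.55% of all genes. Their list of 20, which holds PCNA and the MCM subunits that load onto replication origins, summed to between 1460 and 1638 FPKM in GF and between 1835 and 2555 FPKM in ZM. None of the 20 had a mean under 0.1 FPKM. All 13 lens genes had lower means in ZM than in GF, and they summed to between 5938 and 6794 FPKM in GF and between 3547 and 4800 FPKM in ZM, again with none of them under 0.1 FPKM. All 6 erythrocyte genes tested had higher means in ZM, with 2 higher at an unadjusted p under 0.05, and their list of 7 summed to between 3138 and 3258 FPKM in GF and between 3358 and 4139 FPKM in ZM, with none under 0.1 FPKM. The sums of lens and of skin genes did not overlap between CV and GF either, where the 13 lens genes summed to between 4451 and 5319 FPKM in CV and the 13 skin genes to between 13875 and 14449 FPKM in CV and between 15987 and 19612 FPKM in GF. Sums of other neuron and family lists, described below, also did not overlap between CV and GF. Growth-cone and cytoskeleton genes summed to between 3764 and 3998 FPKM in CV and between 4028 and 4729 FPKM in GF. The other stathmins had 421 to 508 FPKM in CV and 535 to 670 FPKM in GF. The other tubulins had 4520 to 5945 FPKM in CV and 4271 to 4445 FPKM in GF. The part of proliferation, lens, erythrocyte or skin genes in the differences of the 8 neuron genes was not tested.

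In the third comparison, ZM with CV, 7 of the 8 genes had lower means in ZM, against 54.9% of all genes. For elavl3 all ZM samples were below all CV samples, with a log2 fold change of -1.20 (95% interval -1.88 to -0.52, limma adjusted p = 0.156). The less abundant STMN2 copy was also lower in every ZM sample than in any CV sample, by -1.48 (95% interval -2.24 to -0.72, adjusted p = 0.156). Beta-tubulin tubb5 had the next lowest difference, -0.93 (95% interval -1.78 to -0.08, unadjusted p = 0.0353, adjusted p = 0.186), although ZM 3 lay above CV 2. At an adjusted p of 0.05, 0 of 8 genes passed, and limma called 0% of all genes in either direction. At an unadjusted p under 0.05, 3 of 8 were lower against 16.5% of all genes, and 0 were higher against 6.94%. In 2 of 8 all ZM samples were below all CV samples, against 13.3% of all genes, and in 0 of 8 they were all above, against 8.51%. Without CV 2 all 3 passed, elavl3 with -1.62 and an adjusted p of 0.00624, the less abundant STMN2 copy with -1.96 and an adjusted p of 0.00624, and tubb5 with -1.30 and an adjusted p of 0.0428. In that fit limma called 1925 genes of the whole table lower. Without ZM 3, 6 of 8 were lower at an unadjusted p under 0.05. The whole table then held 2521 lower genes at that level, beside 2618 in the reported fit. The remaining differences from CV were -0.68 for elavl4, -0.60 for gap43, -0.20 for the more abundant STMN4 copy, -0.16 for the more abundant STMN2 copy and 0.09 for the less abundant STMN4 copy. The less abundant STMN4 copy was at -0.046 when each sample was scaled to an equal FPKM sum.

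The 8 profiles fell into different shapes across the 9 samples. On the log2(FPKM + 1) scale, Pearson's r was 0.97 between elavl3 and the less abundant STMN2 copy, which share high values in CV 1 and CV 3. It was 0.90 between the more abundant copies of STMN2 and STMN4, 0.88 between the STMN4 copies and 0.83 between gap43 and tubb5. The STMN2 copies had an r of -0.32 with each other. Of the 28 pairs of genes, 5 had an r over 0.8 and 6 an r under 0. These r values describe 9 points that share their groups and libraries, and carry no test.

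Other genes with the profile of elavl3 were sought among 5878 genes with a mean of at least 10 FPKM. The 5 with the highest r were WAC (0.992), zeb2a (0.992), SUPT5H (0.991), AJUBA (0.990) and PLPPR3 (0.990). In mammals ZEB2 is a zinc-finger transcription repressor, and SUPT5H encodes a subunit of the elongation factor DSIF, which regulates pausing of RNA polymerase II. In all, 278 genes had an r over 0.9 with elavl3. The same count was 267 for the less abundant STMN2 copy, 136 for the more abundant one and 80 for the mean profile. For the less abundant STMN2 copy the 5 were MEIS2 (0.991), nlk1 (0.989), OTP (0.988), NR2F2 (0.987) and tle2a (0.986), where MEIS2, OTP and NR2F2 are transcription factors of the developing brain. OTP had mean levels of 40.4 FPKM in CV, 6.06 FPKM in GF and 6.48 FPKM in ZM. For the more abundant STMN2 copy they were atp1b3b (0.990), a sodium pump subunit, calb2b (0.986), a calcium-binding protein gene, GSC (0.985), KHDRBS2 (0.983), an RNA-binding protein gene, and GPM6A (0.979), a neuronal membrane glycoprotein gene. Of these, calb2b had mean levels of 36.0 FPKM in CV, 63.6 FPKM in GF and 31.3 FPKM in ZM. The mean profile of the 8 genes was most like maptb (0.987), the tau gene, and SCAMP3 (0.979), AMPH (0.979) and MDM4 (0.973). Next was the less abundant row named SNAP25 (0.969), a component of the synaptic vesicle fusion machinery.

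The other members of the same families were read beside these genes. The remaining ELAV genes that were tested, elavl1a and ELAVL1, are broadly expressed rather than neuronal. Their log2 fold changes in GF against CV were 0.00 and -0.05, and ELAVL2, with a mean of 0.226 FPKM, was not tested. Among the remaining stathmins, STMN3 had 6.14, 6.04 and 4.27 FPKM in CV and 3.22, 2.74 and 2.24 FPKM in GF, with all GF samples lower (-0.79, limma adjusted p = 0.0742). The more abundant of 2 rows named STMN1, the stathmin of dividing and neural cells, had mean levels of 369.6 FPKM in CV, 511.1 FPKM in GF and 383.6 FPKM in ZM. Between GF and CV it differed by 0.46 on the log2 scale (limma adjusted p = 0.113). The other STMN1 row had mean levels of 78.3 FPKM in CV, 93.3 FPKM in GF and 112.6 FPKM in ZM. It differed by 0.26 between GF and CV (limma adjusted p = 0.277).

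Among 13 other tubulin genes tested, 2 were lower and 1 was higher in GF than in CV at an unadjusted p under 0.05, shares close to the 18.0% and 4.70% of all genes, and 0 passed the adjusted threshold. Alpha-tubulin tuba8l4 had 431.5, 171.0 and 394.6 FPKM in CV and 103.6, 169.4 and 97.0 FPKM in GF (-1.36, limma adjusted p = 0.0533). Beta-tubulin tubb2b had a log2 fold change of -0.89, and TUBB2B, a separate row, one of 0.31. The median of the 13 was -0.26 in GF against CV and -0.02 in ZM against GF.

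Wider lists of young-neuron genes gave the setting, and 0 of their genes passed the adjusted threshold in GF against CV. Transcription and RNA-binding factors had a median log2 fold change of -0.63 over 38 genes, where an unadjusted p under 0.05 was reached by 17 lower genes, against 18.0% of all genes, and by 0 higher ones, against 4.70%. MYT1, a zinc-finger factor of differentiating neurons, had the lowest value (-1.83), followed by CELF3 (-1.78), a splicing regulator, while NEUROD6 (0.59) and ZC4H2 (0.36) had the highest. In ZM against CV, 26 of the 38 were lower at an unadjusted p under 0.05, against 16.5% of all genes, with a median of -0.76. Growth-cone and cytoskeleton genes had a median of -0.02 over 39 genes in GF against CV, where that level was reached by 8 lower genes, close to the 18.0% of all genes, and by 4 higher genes, against 4.70%. Its ends were map2 (-1.30) and nefma (-1.18), genes for a microtubule-associated protein and a neurofilament, and sncb (0.41) and NRN1 (0.40), genes for a synuclein and for neuritin. Adhesion and axon-surface genes had a median of -0.18 over 20 genes, with 5 lower and 0 higher at that level beside the same 18.0% and 4.70% of all genes, from NCAM1 (-1.16) and cntn1a (-1.11) to SCG3 (0.31) and alcamb (0.21). MYT1, CELF3, NEUROD6, NRN1 and NCAM1 are each also the name of another row, whose value is not given.

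Progenitors and synapses bracket the stage of these genes. Of 22 neural progenitor genes, 8 were lower and 0 higher in GF than in CV at an unadjusted p under 0.05, against 18.0% and 4.70% of all genes, with NOTCH3 (-1.85) and NOTCH1 (-1.67) lowest and S100B (0.33) and her4.1 (0.22) highest. NOTCH1 is also the name of another row, whose value is not given. Of 20 synaptic genes, 4 were lower, close to the share of all genes, and 0 higher, with SLC32A1 (-1.08) among the lowest and sypb (0.49) and the more abundant row named SNAP25 (0.40) highest. That SNAP25 row had means of 48.4 FPKM in CV and 63.4 FPKM in GF. The less abundant SNAP25 row, named above for its profile, had 25.1 FPKM in CV and 19.4 FPKM in GF. In ZM against GF all 20 synaptic genes had lower means, with a median of -0.43 and 8 lower at an unadjusted p under 0.05, against 3.16% of all genes, and 32 of 39 growth-cone genes had lower means, with a median of -0.24. The progenitor genes had a median of 0.11 there, with 0 lower, against 3.16% of all genes, and 2 higher, against 2.55%.

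**Figure D4:**
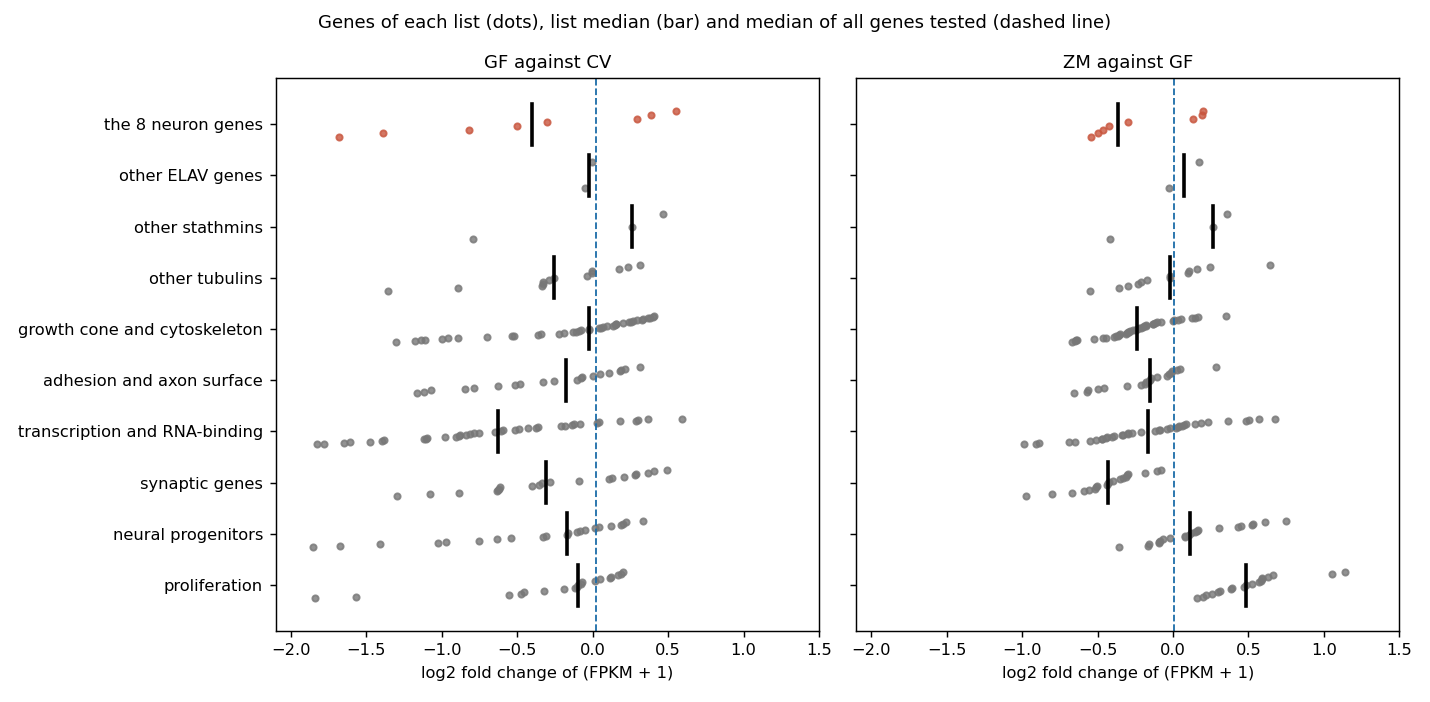
Log2 fold changes on the log2(FPKM + 1) scale of the tested genes of each list (points, with the list's median as a bar) in GF against CV and in ZM against GF, with the 8 young-neuron genes described above as the first list. The 10 lists shown are these genes, their families, other neuron genes, progenitor genes and proliferation genes. In GF against CV the transcription and RNA-binding factors have a median of -0.63, and in ZM against GF all 20 synaptic genes lie below 0 and all 19 proliferation genes lie above 0.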

How the data were processed

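RNA was measured in 9 samples, 3 CV, 3 GF and 3 ZM, grouped by the labels. The authors prepared poly(A) libraries with a directional kit, checked reads with FastQC 0.11.8, mapped them to GRCz11 with HISAT2 2.1.0 and deposited FPKM values from StringTie 1.3.4d for 32520 Ensembl genes. Their differential expression used DESeq2 1.29.13 on HTSeq 0.11.0 counts, which were not used here. The study states a sequencing depth for its libraries as a range, but the reads behind a single FPKM value are unknown, so no interval for counting error is given. Gene names came from a table of Ensembl IDs and symbols, which named 29201 of the IDs. No genome of the files' build was used, so no positions or sequences are given.

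Genes averaging 1 FPKM or more (15904) were tested on log2(FPKM + 1) in R 4.3.3 with limma 3.58.1, as a single model of 9 samples with eBayes trend, two-sided, with Benjamini-Hochberg adjustment over all of them. A pseudocount of 1 understates the change of low genes. The thresholds were 0.05 for GF against CV and ZM against CV and 0.1 for ZM against GF. Ratios between gene copies were compared with an exact permutation test, also in R. The fit was run on simulated data with planted changes larger than those of the members. That run does not show how often changes of the members' size would be called. The members, gene lists and tests were chosen with earlier results of these data known. Named genes were the members, the tested genes of their families, the 2 lowest and 2 highest genes by fold change in GF against CV of each other list described, and the 5 genes most like elavl3, each STMN2 copy and the mean of the members. Of these, 1 gene is not reported here. The other marker lists gave, in GF against CV and then ZM against GF, medians of -0.09 and -0.02 for muscle, 0.08 and 0.18 for erythrocytes, 0.47 and -0.70 for lens, -0.62 and -0.07 for retina photoreceptors, 0.32 and -0.10 for skin, -0.82 and 0.14 for cartilage and -0.13 and 0.09 for liver and yolk.

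Same-numbered GF and ZM samples deviated from their group means together, with correlations across genes of 0.409, 0.466 and 0.616. GF and ZM samples of different number had correlations from -0.508 to 0.289. Deviations from a group mean cancel out within the group, so the same-numbered and different-numbered correlations are not independent. The numbers were taken to pair GF with ZM on this basis, although the labels state no pairing. Same-numbered GF and CV samples had -0.06, 0.15 and 0.32 and those of ZM and CV 0.06, 0.06 and 0.49, so CV was not taken as paired. The tests of the members and the counts over all genes were recomputed under alternatives. These were a pseudocount of 0.1, a filter of 5 FPKM or none, and median-of-ratios, equal-sum or quantile rescaling. Others were 2 groups in the fit, sample weights by group, no eBayes trend, the replicate number as a block, and leaving out each sample in turn. The elavl3 to elavl4 and STMN2 ratios were recomputed only with samples paired by number and without each sample in turn. The STMN4 ratio and the results of the other gene lists were not recomputed.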

Additional observations from a re-analysis of the deposited data

How the results depend on the processing

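In GF against CV, 0 members passed the adjusted threshold in the reported fit, and 2 passed (elavl3 and the less abundant STMN2 copy, both lower) with a pseudocount of 0.1, with group-specific sample weights, and with a replicate block in a fit of only the 2 groups compared, which was added after the data were seen. In GF against CV any block pairs CV by number, although CV was not taken as paired. The replicate block with all 9 samples left 0 members past the threshold in each comparison, and moved no other count of members past an adjusted threshold. Pairing samples by number leaves the difference in log2 STMN2 ratio as it was by construction, at 2.15 in GF against CV and -0.76 in ZM against GF. The paired exact p was 0.25 in both, the smallest possible. Leaving out 1 sample gave 0 to 2 lower members in GF against CV and 0 to 3 in ZM against CV, the higher number in each case without CV 2. The whole table depended on the same choices, with 1 gene called lower in GF against CV in the reported fit, 841 with a pseudocount of 0.1, 787 with sample weights, 1295 in the blocked fit of 2 groups, 2202 without CV 2 and 0 without CV 1, CV 3 or any GF sample and with no filter. At an unadjusted p under 0.05 the table held 2858 lower and 747 higher genes in GF against CV, 2639 and 1400 after median-of-ratios rescaling, 3331 and 179 with an equal FPKM sum and 2216 and 1862 after quantile normalization. In ZM against CV, 0 genes were called in the reported fit, and 1925 lower and 602 higher without CV 2. Signs changed for some differences. The less abundant STMN4 copy in ZM against CV was at -0.046 with an equal FPKM sum and from -0.11 to 0.22 when a sample was left out, elavl4 in ZM against GF ran from -0.40 to 0.74, and the log2 ratio of elavl3 to elavl4 ran from -0.64 to 0.68 in ZM against GF and from -1.16 to 0.16 in ZM against CV. The direction in GF against CV was kept by every member in every alternative run. For elavl3 and both STMN2 copies the samples did not overlap, so leaving out a sample could not reverse it. The block, the fit of only the groups compared and the fit without the trend leave the fold change as it was. The cause of these dependences was not tested.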
